A study of Mus musculus with 6 samples.

Results

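The 8 genes described here are regulators and receptors of the melanocyte lineage, 5 transcription factors (*Mitf*, *Sox10*, *Pax3*, *Lef1* and *Tfap2a*) and 3 surface receptors (*Mc1r*, *Kit* and *Ednrb*). They were taken by mouse symbol from a table of 18324 gene rows, and all 8 were present as rows. Their transcripts were counted in B16-F10, a mouse melanoma cell line, grown in serum-supplemented medium and sorted by flow cytometry on the light scatter that intracellular melanin causes. The 2 groups were the high-pigmented (HPC) and low-pigmented (LPC) fractions, sequenced as 3 libraries per fraction, with no drug, gene deletion or transgene named for either. As labelled, the groups differ only in the sorted fraction, and both carry whatever is particular to this 1 cell line. Each HPC library shares a suffix of its title with 1 LPC library. These matched libraries are called pairs 1, 2 and 3. What the suffix marks, and whether the pairs came from separate cultures, is not stated, so p values measure the spread between these libraries only, which may be technical.

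In melanocytes, SOX10 and PAX3 bind the *Mitf* gene and raise its transcription, and MITF, a basic helix-loop-helix leucine zipper factor, in turn activates genes of melanin synthesis and of the melanosome. Signals reach *Mitf* from outside the cell through MC1R, whose ligand raises cyclic AMP and activates CREB, through the Wnt pathway and its nuclear partner LEF1, and through the receptor tyrosine kinase KIT, whose MAP kinase branch phosphorylates MITF protein. EDNRB, the endothelin receptor, is needed for melanoblasts to spread and survive, and TFAP2A (AP-2 alpha) acts in the neural crest from which melanocytes arise. Transcript counts do not report protein level, phosphorylation or cyclic AMP.

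Reads came from near the polyadenylated end of transcripts (3′-end sequencing), so long and short transcripts are expected to give similar counts per molecule. Levels are given as CPM, read counts scaled to a common library total after TMM scaling, a correction for differences in composition between libraries. Counts on genes ranged from 3819605 to 7311131 per library. Pair 2 stood apart from the others. A row named RP23-81C12.3 and the 2 mitochondrial ribosomal RNA genes took 66.1% and 34.8% of gene counts in its HPC and LPC libraries, against 5.05% to 6.99% elsewhere. All 7 melanocytic markers were expressed in both groups, with summed levels of 4443 to 20733 CPM in HPC and 6189 to 17282 CPM in LPC libraries. Of 16 markers of keratinocytes, fibroblasts, endothelial cells and leukocytes, 5 were rows of the table. None of the 4 keratinocyte markers was among them. Their summed level was 3.16 to 50.6 CPM in HPC libraries, highest in pair 2, and 2.57 to 7.93 CPM in LPC ones, lowest in pair 2. The part of these pair 2 features in the values below was not tested beyond giving results without that pair.

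*Mitf* lies at chr6:97807052-98021349 (plus strand) in the GRCm38 annotation of GENCODE release vM21. Its 6 coding transcripts begin at 6 different positions, and 4 of them end within 200 bases of the commonest 3′ end. The counts are given per gene and do not tell its isoforms apart. *Sox10* lies at chr15:79154908-79165240 (minus), *Pax3* at chr1:78101267-78197134 (minus), *Tfap2a* at chr13:40715302-40738376 (minus) and *Mc1r*, a gene of 1 exon, at chr8:123407107-123410744 (plus). *Lef1* lies at chr3:131110471-131224356 (plus), *Kit* at chr5:75574916-75656722 (plus) and *Ednrb* at chr14:103814625-103844402 (minus). Exons of *Mc1r*, *Tfap2a* and *Lef1* overlap exons on the opposite strand, and the sources used here do not say if strand was used in counting. *Mc1r* also shares stretches of at least 100 bases at 95% identity or more with transcripts of 5 other genes, of which 3 have rows here. Counts of these 3 genes are uncertain to that extent.

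Promoter windows from RefSeq (GRCm38.p6) were matched for 6 of the 8 genes; *Sox10* and *Pax3* had no match. Of those windows, 2 are shown, those of members with ample counts that hold the motifs searched here for MITF, LEF/TCF or CREB. The first holds the 250 bases before the most downstream of the 3 RefSeq starts of *Mitf*, that of the melanocyte isoform MITF-M (chr6:97991533-97991782, plus strand). The second holds the 250 bases before the start of *Mc1r* (chr8:123406832-123407081, plus strand). Capitals mark matches, on either strand, to the LEF/TCF motif CTTTGA, the core TGACG of the cyclic AMP response element, the E-boxes CATGTG and CACGTG bound by MITF and related factors, and the SOX motif ACAAAG.
Mitf: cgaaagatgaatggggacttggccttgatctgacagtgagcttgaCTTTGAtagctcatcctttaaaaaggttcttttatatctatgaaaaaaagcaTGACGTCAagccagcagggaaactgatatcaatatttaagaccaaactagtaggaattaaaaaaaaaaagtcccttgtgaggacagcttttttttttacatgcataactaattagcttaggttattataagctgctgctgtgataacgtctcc
Mc1r: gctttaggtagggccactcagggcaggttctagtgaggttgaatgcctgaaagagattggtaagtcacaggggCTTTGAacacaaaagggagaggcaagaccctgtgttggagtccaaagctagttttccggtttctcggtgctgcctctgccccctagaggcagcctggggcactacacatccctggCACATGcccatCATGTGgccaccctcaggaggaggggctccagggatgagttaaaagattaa
In the *Mitf* window the LEF/TCF motif begins at -205 relative to the start, and overlapping TGACG cores on opposite strands begin at -153 and -150, which is the palindrome of a full cyclic AMP response element. In the *Mc1r* window CATGTG occurs once on each strand, at -62 and -51, and CTTTGA lies at -177. Among all 32851 RefSeq windows of this length, CTTTGA occurs in 13.83%, TGACG in 17.77%, CATGTG in 12.25%, CACGTG in 6.021% and ACAAAG in 16.46%. Windows of 2 members with few counts also held matches to these motifs. One of the 4 *Lef1* windows had CACGTG at -79, ACAAAG at -146 and the LEF/TCF motif at -180 and -120, and that of *Ednrb* had TGACG at -203. Motifs for AP-2 (GCCNNNGGC, in 13.73% of all windows) and PAX (ATTA, in 54.92%) were also searched but are not in capitals. AP-2 matches began at -86 for *Mc1r*, -195 for *Ednrb* and -134 and -138 in the *Kit* windows. ATTA or its reverse complement began at -98, -45, -43 and -30 in the *Mitf* window shown and at -5 in that of *Mc1r*. A match is a description of the letters and not evidence of binding.

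The group split into 5 genes with ample counts and 3 near zero. Averaged over the 6 libraries, *Pax3* was the highest at 167 ± 59.3 CPM (SD, n = 6), followed by *Mitf* at 159.8 ± 127 CPM, *Mc1r* at 132 ± 74.0 CPM, *Sox10* at 83.9 ± 35.3 CPM and *Tfap2a* at 33.4 ± 7.21 CPM. *Pax3* and *Mc1r* exceeded *Sox10*, and *Sox10* exceeded *Tfap2a*, in 6 of 6 libraries. The first 3 places were less settled, as *Pax3* exceeded *Mitf* in 4 of 6 libraries and *Mc1r* in 5 of 6, and *Mc1r* exceeded *Mitf* in 4 of 6. *Mitf* exceeded *Sox10* in 4 of 6, all outside pair 2. The means of *Pax3*, *Mitf* and *Mc1r* thus differed by less than their spread. Of 11324 genes that passed the filter on low counts, 92.9% had a lower mean than *Pax3*, 92.7% a lower mean than *Mitf* and 65.2% a lower mean than *Tfap2a*.

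**Figure D1:**
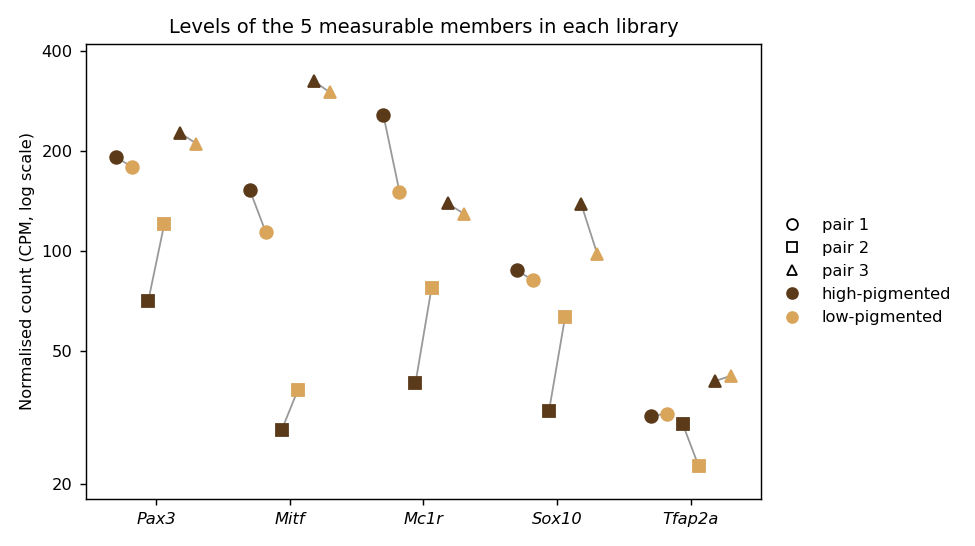
Normalised counts (CPM, log scale) of the 5 members with ample counts in each of the 6 libraries, with the HPC and LPC library of a pair joined by a line. *Mitf* was lowest in both libraries of pair 2 (29.1 and 38.3 CPM) and highest in both libraries of pair 3 (325 and 300.2 CPM).

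*Mitf*, the central regulator of the group, had 153, 29.1 and 325 CPM in the HPC libraries of pairs 1, 2 and 3 and 114, 38.3 and 300.2 CPM in the LPC ones. The libraries ordered by pair, pair 2 lowest and pair 3 highest, and within each pair the groups lay close together. The largest difference within a pair was 1.34-fold, in pair 1, while the highest library exceeded the lowest 11.2-fold. *Sox10*, the neural crest factor upstream of *Mitf*, had 87.5, 33.2 and 139 CPM in HPC and 81.8, 63.5 and 98.4 CPM in LPC libraries of pairs 1, 2 and 3. The HPC libraries held both the lowest and the highest value, with all LPC ones between them. *Pax3*, a paired-box factor, had 192, 71.0 and 227 CPM against 179, 121 and 211 CPM, and again the extremes were both HPC. *Tfap2a* varied least, with 32.1, 30.3 and 40.7 CPM against 32.4, 22.6 and 42.2 CPM, a 1.87-fold range over all libraries.

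*Mc1r*, the melanocortin receptor, was the only receptor of the group with ample counts. It had 257, 40.2 and 139 CPM in the HPC libraries of pairs 1, 2 and 3 and 151, 77.5 and 129.8 CPM in the LPC ones. Its highest value was in pair 1, where *Mitf* was intermediate. The groups overlapped in all 5 of these genes, where 5.74% of all genes tested had groups that did not overlap.

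*Lef1*, *Kit* and *Ednrb* did not pass the filter on low counts. *Lef1*, the nuclear partner of beta-catenin, had raw counts of 2, 0 and 6 in the HPC and 4, 17 and 0 in the LPC libraries of pairs 1, 2 and 3. *Kit*, the stem cell factor receptor, had 1, 0 and 5 counts against 0, 3 and 21. *Ednrb* had 0, 0 and 1 counts against 0, 30 and 0. Most of each gene's counts thus came from 1 LPC library, that of pair 2 for *Lef1* and *Ednrb* and that of pair 3 for *Kit*. A count of 0 allows a level of up to 3 counts, which is 0.315 to 1.75 CPM depending on the library, and so does not show absence. The 30 counts of *Ednrb* correspond to 8.58 CPM in that library. Other rows were also nearly confined to 1 library of pair 2. At least 20 counts in 1 library and at most 1 in every other were found for 74 rows in the LPC and 122 rows in the HPC library of pair 2, and for 0 to 3 rows in each of the others. No fold change is given for these 3 genes.

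**Figure D2:**
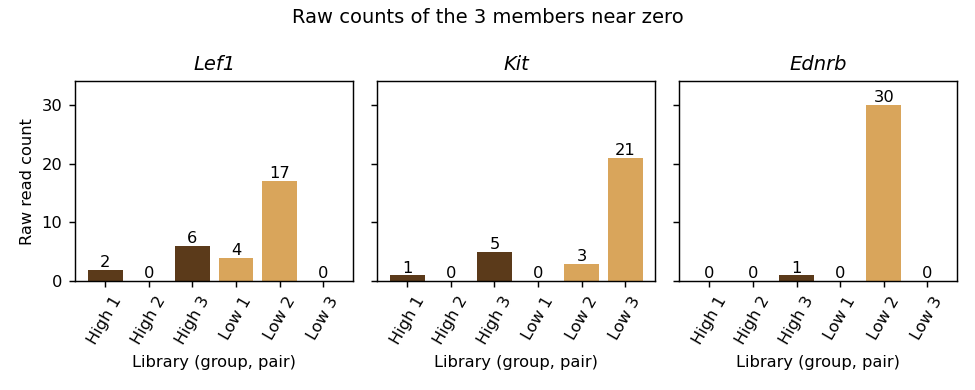
Raw read counts of *Lef1*, *Kit* and *Ednrb* in each library (HPC or LPC, pairs 1 to 3). Each gene has its highest bar in a single LPC library, at 17, 21 and 30 counts.

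The comparison of the sorted fractions set transcript levels in cells with more melanin beside those in cells with less. None of the 5 members with ample counts passed in edgeR's quasi-likelihood test over 11324 genes with Benjamini-Hochberg adjustment, in which 0% of genes passed (0 genes, and 38 at an unadjusted p under 0.05, of which 0 were members). DESeq2 and limma-voom also called 0 genes, with 134 and 25 at an unadjusted p under 0.05. *Mc1r* averaged 145 ± 108 CPM in HPC and 119.5 ± 37.9 CPM in LPC (SD, n = 3 each), and the log2 fold change was 0.28 ± 0.63 (SE). *Mitf* averaged 169 ± 148 CPM against 151 ± 135 CPM, a log2 fold change of 0.17 with a 95% interval of -1.94 to 2.27. For *Sox10*, *Tfap2a* and *Pax3* the log2 fold changes were 0.10, 0.08 and -0.06, with intervals no wider than -1.20 to 1.32. The adjusted p of each was 0.9996. These intervals include the differences between pairs. With the pairs as a block in the same test on all 6 libraries, the 95% interval was -0.54 to 0.67 for *Mitf* and -0.63 to 0.63 for *Mc1r*. It was -0.98 to 0.81 for *Sox10*, -0.84 to 0.49 for *Pax3* and -0.65 to 0.88 for *Tfap2a*. In sorted cells, fewer cells with a transcript and less transcript per cell cannot be told apart. Both sets of intervals leave room for changes of either direction. In the fit without the block, leaving out 1 library turned the direction of each of the 5. The partner of that library stayed in, so these turns include the differences between pairs. Without the HPC library of pair 3 *Mitf* stood at -0.73, *Sox10* at -0.43 and *Tfap2a* at -0.069, and without that of pair 1 *Mc1r* stood at -0.41 and without that of pair 2 *Pax3* at 0.30.

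Within pairs, 4 of the 5 members shared a pattern. *Mitf*, *Sox10*, *Pax3* and *Mc1r* were higher in the HPC library of pairs 1 and 3 and lower in that of pair 2, a pattern shown by 15.1% of all genes tested. In pair 1 the log2 ratios of HPC to LPC CPM were 0.42 for *Mitf* and 0.76 for *Mc1r*, and 0.10 and 0.11 for *Sox10* and *Pax3*. In pair 3 it was *Sox10* that differed most, at 0.50, with *Mitf*, *Pax3* and *Mc1r* between 0.10 and 0.11. In pair 2 the ratios were -0.94 for *Sox10*, -0.95 for *Mc1r*, -0.77 for *Pax3* and -0.40 for *Mitf*. All genes tested had a median log2 difference of -0.20 in pair 2, against 0.016 and -0.0024 in pairs 1 and 3. The part of this shift in the ratios of the members was not tested. *Tfap2a* went the other way, at -0.02, 0.42 and -0.05 in pairs 1, 2 and 3.

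Counting error bounded some of these differences. The 95% interval of the ratio, from the exact binomial (Clopper-Pearson) interval of the 2 counts, excluded equality for *Mitf* in pairs 1 and 3, for *Sox10* and *Pax3* in pairs 2 and 3 and for *Mc1r* in pairs 1 and 2. For *Mc1r* in pair 1 it ran from 0.64 to 0.88 on the log2 scale, and for *Mitf* in pair 2, from 50 and 134 counts, it ran from -0.90 to 0.08. Every interval of *Tfap2a* included 0. Over all genes tested 41.6%, 67.6% and 51.9% of intervals excluded 0 in pairs 1, 2 and 3, so an interval clear of 0 compares 2 libraries and was common. Reads are not known to be independent molecules, and these intervals cover counting error only.

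**Figure D3:**
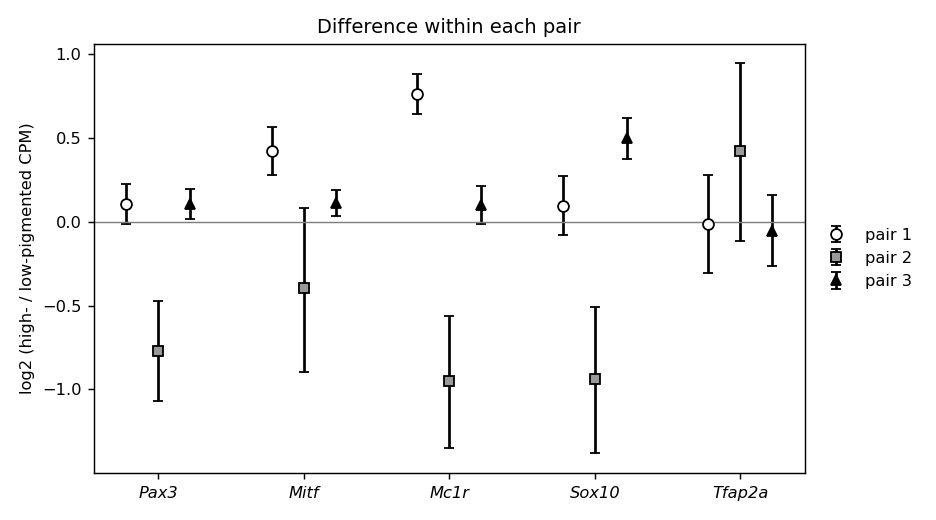
Log2 ratio of HPC to LPC CPM within each pair for 5 members, with 95% intervals from counting error alone. Pair 2 lies at -0.94, -0.95, -0.77 and -0.40 for *Sox10*, *Mc1r*, *Pax3* and *Mitf*, below pairs 1 and 3, and above them for *Tfap2a* at 0.42.

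Without pair 2, and with the pairs as a block in the same test, the spread between libraries was smaller, the biological coefficient of variation common to all genes being 19.5% against 71.6% with all libraries and no block. In that fit 1.30% of 11906 genes passed, and 0 of the 5 members did. The log2 fold change was 0.42 ± 0.16 (SE) for *Mc1r*, with an adjusted p of 0.252 in edgeR and an unadjusted 95% interval of 0.09 to 0.75. *Sox10* stood at 0.29 ± 0.16 with an adjusted p of 0.499, and *Mitf* at 0.25 ± 0.14 with an adjusted p of 0.493. The upper bounds of their intervals were 0.63 and 0.54. *Pax3* was at 0.10 and *Tfap2a* at -0.05, with adjusted p values of 0.858 and 0.964. The fit rests on 4 libraries and 1 residual degree of freedom.

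Ratios between members within a library do not depend on how libraries are scaled. *Sox10* and *Pax3* kept nearly one proportion, with 0.456, 0.467 and 0.612 *Sox10* counts per *Pax3* count in the HPC libraries and 0.458, 0.525 and 0.467 in the LPC ones, each in the order of pairs 1, 2 and 3. The HPC library of pair 3 was the highest, and the other 5 lay between 0.456 and 0.525. *Mitf* counts per *Sox10* count were 1.75, 0.877 and 2.34 in HPC and 1.39, 0.604 and 3.05 in LPC libraries. They were lowest in both libraries of pair 2 and highest in both of pair 3, and the HPC library had the higher ratio in pairs 1 and 2 and the lower in pair 3. The *Mc1r* counts per *Mitf* count were 1.68, 1.38 and 0.429 in HPC and 1.33, 2.02 and 0.433 in LPC libraries. Pair 3 was thus the only pair with fewer *Mc1r* than *Mitf* counts, by nearly the same factor in both fractions.

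**Figure D4:**
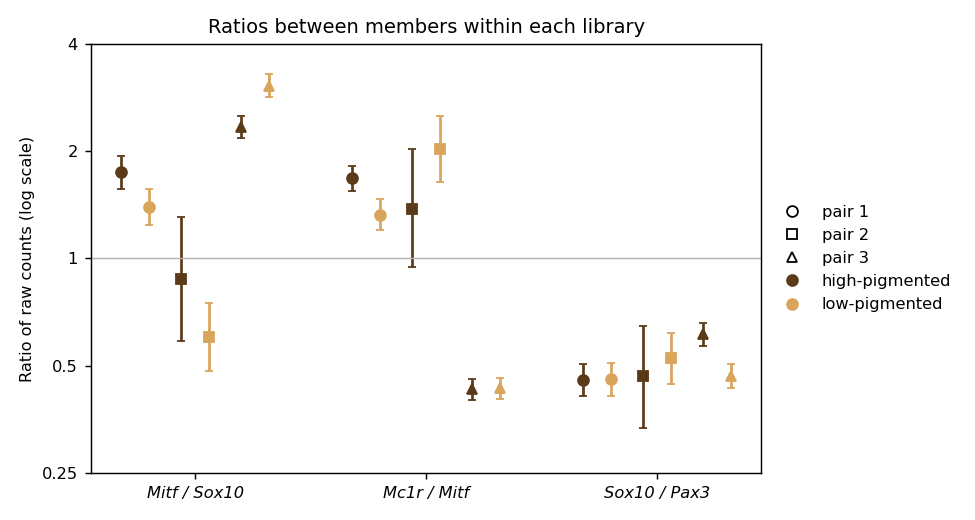
Ratios of raw counts between members in each library (log scale), with 95% intervals from counting error alone. *Mitf* per *Sox10* ran from 0.604 to 3.05 and *Sox10* per *Pax3* from 0.456 to 0.612.

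The difference between pairs 1 and 3 was tested in the same fit without pair 2, a comparison added after the data were seen. The pairs differed broadly, as 25.5% of genes passed (11.8% as higher in pair 3), and 3 of the 5 members were among them. *Mitf* was higher in pair 3 by 1.24 ± 0.14 (SE) on the log2 scale, with an adjusted p of 1.78e-07 in edgeR. *Sox10* was higher by 0.47 ± 0.16 (adjusted p 0.0362), and *Mc1r* was lower, at -0.55 ± 0.16 (adjusted p 0.0132). *Pax3* and *Tfap2a* differed by 0.24 and 0.36 and did not pass. Each pair supplied 1 HPC and 1 LPC library, so these SEs and p values rest on agreement between the fractions. They do not measure the spread between repeats of a pair. With the sorted fraction left out of the model, *Mitf* passed at 1.23 (adjusted p 0.000900), and *Sox10* (0.141) and *Mc1r* (0.0988) did not. Leaving out 1 library as well, which leaves 1 pair with a single library assumed to vary like the other pair, *Mitf* passed each time, with differences of 1.03 to 1.46. In those fits of 3 libraries *Mc1r* passed only without the LPC library of pair 1 and stood at -0.17 without the HPC library of pair 1, and *Sox10* stood at 0.22 without the HPC library of pair 3. With all 6 libraries and the block, none of the 3 passed, and the difference of *Mitf* was 1.23 (adjusted p 0.291). What separates the pairs, whether culture, sort, library preparation or time, cannot be told apart here.

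Human symbols in the table would merge some members with their paralogs. The table lists *Mitf* under TFEB together with *Tfeb* and *Tfe3*, *Sox10* under SOX9 together with *Sox9*, *Pax3* under PAX7, and *Kit* under KIT together with *Csf1r*. *Mitf* made up 86.5% of counts under TFEB in the HPC library of pair 1 (Wilson 95% interval 84.3% to 88.4%), 47.6% in pair 2 (38.3% to 57.1%) and 91.4% in pair 3 (90.4% to 92.4%). In the LPC libraries its share was 85.7% (83.1% to 87.9%), 42.9% (37.6% to 48.5%) and 94.4% (93.5% to 95.2%). The closely related *Tfeb* and *Tfe3*, which govern lysosomal genes, together thus outnumbered *Mitf* in the LPC library of pair 2. In the HPC library of pair 2 the interval included equal shares, and outside pair 2 they made up a small part. Each alone stayed below *Mitf* in pair 2, with 9 and 46 counts against 50 in HPC and 71 and 107 against 134 in LPC. *Sox10* made up 62.3%, 30.3% and 66.3% of counts under SOX9 in HPC and 65.8%, 58.7% and 65.5% in LPC libraries of pairs 1, 2 and 3. The widest Wilson interval, in the HPC library of pair 2, ran from 24.2% to 37.2%.

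Genes around the members were taken from 10 lists of their families and pathways. No list gene passed in the test over all 6 libraries. In the fit without pair 2 and with the block, in which 0.932% of all genes passed as higher and 0.370% as lower in HPC, 0 genes passed in 7 of the lists. These were the 7 tested MITF relatives and partners (median log2 fold change -0.09), 5 other SOX genes (0.06), 24 genes of the LEF/TCF and beta-catenin pathway (-0.05), 2 AP-2 and PAX genes (0.02), 21 genes of MC1R and cyclic AMP signalling (-0.22), 40 of KIT signalling (0.11) and 19 of EDNRB signalling (0.05). The median over all genes was 0.0013. Where no gene of a list passed, its 2 most abundant genes stand for it. *Sox9*, the sister gene of *Sox10*, averaged 66.6 ± 12.2 CPM in HPC and 46.3 ± 4.92 CPM in LPC (SD, n = 3 each) and had log2 ratios of 0.31, 0.77 and 0.44 in pairs 1, 2 and 3, all toward HPC, as were 12.9% of all genes. Its log2 fold change of 0.37 without pair 2 had an adjusted p of 0.439 in edgeR. *Sox4*, overlapped by *Gm26735* on the opposite strand, was at 0.06. Of the LEF/TCF pathway, the kinase genes *Gsk3b* and *Csnk1a1*, which mark beta-catenin for destruction, were at 0.23 and -0.20.

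In the list of MC1R and cyclic AMP signalling, *Gnai2*, which encodes an inhibitory G protein subunit and shares near-identical stretches with 39 other genes, was at -0.08 and *Creb1*, the gene of the factor that binds cyclic AMP response elements, at -0.48 ± 0.18 (SE, adjusted p 0.236 in edgeR). *Creb1* had 57.6, 69.3 and 55.7 CPM in HPC and 73.9, 33.2 and 82.5 CPM in LPC libraries of pairs 1, 2 and 3. It was thus lower in HPC in pairs 1 and 3 and higher in pair 2, the reverse of *Mc1r*. *Akt1* and *Mapk3*, kinases that act after KIT, were at -0.05 and 0.13, and *Gna13* and *Itpr2* of the endothelin list at 0.14 and -0.43. *Usf2* and *Max*, which bind E-boxes as MITF does, were at -0.10 and -0.09, and *Pax9* and *Tfap4*, the 2 genes of the AP-2 and PAX list that could be tested, at 0.72 and -0.69, at mean levels of 9.82 and 2.93 CPM. Near-identical stretches are also shared with other genes by *Usf2*, *Pax9*, *Gna13* and *Itpr2*.

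Among 22 other regulators of *Mitf* or of melanocyte state, 1 passed without pair 2. *Bhlhe41*, a repressor of the basic helix-loop-helix class, had 257, 128 and 609 CPM in HPC and 177, 78.0 and 365 CPM in LPC libraries of pairs 1, 2 and 3. Its log2 ratios of HPC to LPC were 0.54, 0.71 and 0.74, so the HPC library was the higher in all 3 pairs, and its log2 fold change was 0.63 ± 0.13 (SE, adjusted p 0.0103 in edgeR). It overlaps *Gm43909* on the opposite strand. Among 8 neural crest or glial genes tested, 1 passed. *S100b*, a calcium-binding protein gene used as a melanoma marker, had 534, 317 and 1028 CPM against 262, 224 and 501 CPM, and its log2 fold change was 1.02 ± 0.12 (adjusted p 3.55e-05). Its difference was 1.02, 0.50 and 1.04 in pairs 1, 2 and 3. With all 6 libraries, the block and limma-voom sample weights, a fit that called 0.300% of genes and 0 members, *S100b* (adjusted p 0.00133) and *Bhlhe41* (0.0417) passed too, and with the block in edgeR neither did (0.927 each).

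The last list holds 20 genes taken as targets of MITF or SOX10, most of them pigment cell genes, and is given for reference beside the regulators. Whether each is a target in these cells was not tested. Its direction was already known from these libraries and is no independent evidence. Without pair 2, 8 of the 20 passed, all higher in HPC, and the median log2 fold change was 0.69, against 0.25 for the 5 members. *Trpm1*, a melanocyte cation channel gene, had 46.9, 57.0 and 272 CPM against 10.6, 36.3 and 59.8 CPM, and its log2 fold change stood at 2.16 ± 0.18 (SE), with an adjusted p of 4.17e-08 in edgeR. *Oca2*, of a melanosomal chloride channel, was at 1.80, *Mlph* and *Mreg*, of melanosome transport, at 0.87 and 0.87, *Cdk2* at 0.79, the transporter gene *Slc45a2* at 0.76, the fibril gene *Pmel* at 0.74 and *Gpnmb* at 0.64. Pair 2, which that fit leaves out, went the other way for *Mlph* and *Pmel*, with log2 ratios of HPC to LPC of -1.09 and -0.58. It stood at 3.40 for *Mreg* and 3.11 for *Cdk2*, far above pairs 1 and 3, and at 1.17, 0.85, 0.65 and 0.14 for *Oca2*, *Slc45a2*, *Trpm1* and *Gpnmb*. Of the 20 genes, 11 lay above *Mc1r*, the highest member at 0.42. Whether the listed genes differ from the members was not tested. In edgeR with all 6 libraries and the block none of these 8 passed (adjusted p 0.927 each). *Pmel* and *Cdk2* overlap each other's exons on opposite strands, and *Trpm1* shares near-identical stretches with transcripts of 19 other genes, so these counts are uncertain.

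**Figure D5:**
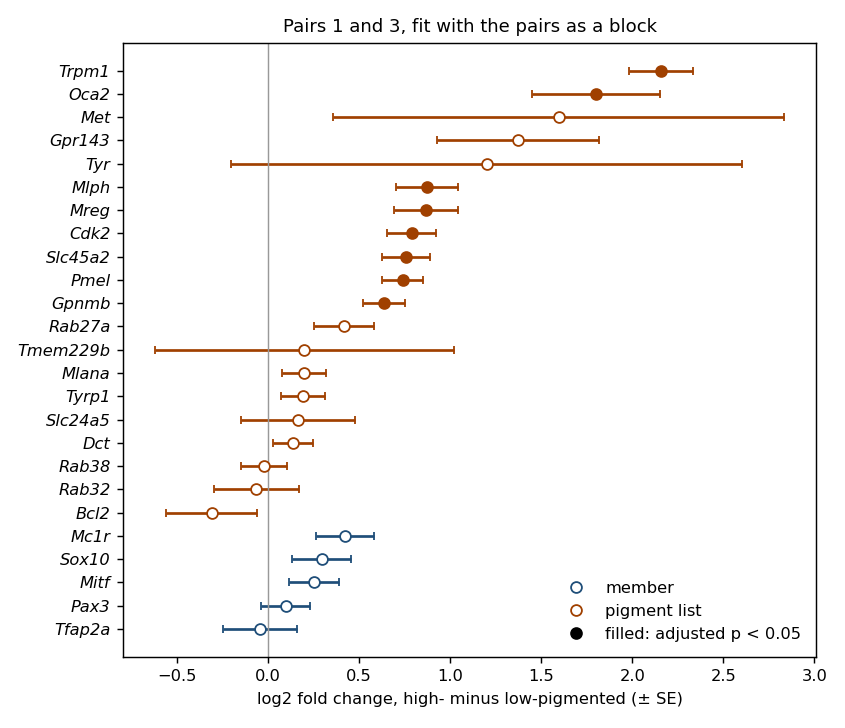
Log2 fold change of HPC against LPC with its SE, in the edgeR fit to pairs 1 and 3 with the pairs as a block, for 5 members (blue) and 20 pigment-list genes (orange). Filled points have an adjusted p under 0.05, which 8 pigment-list genes and 0 members reached.

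The genes whose levels ran most like each member over the 6 libraries were found by the root-mean-square difference between log2 CPM profiles, each centred on its own mean, among 7781 other genes averaging at least 10 CPM. For *Mitf*, which itself varied by 1.33 (root mean square, log2), the nearest were *Cyp2j6* at 0.29, *Actr8* at 0.31 and *Syt4* at 0.32. *Sox10*, varying by 0.63, was followed more closely, by *Aar2* at 0.048, *Renbp* at 0.074 and *Atp7a* at 0.10. For *Pax3* they were *Dhdds* at 0.054, *Mrpl51* at 0.069 and *Bnip2* at 0.082, and for *Tfap2a* *Cltc* at 0.047, *Rragc* at 0.068 and *Ppp2r1a* at 0.070. For *Mc1r* they were 2810403A07Rik at 0.18, *Tagap1* at 0.22 and *Ndufa4* at 0.22. The median distance of all candidates was between 0.67, from *Tfap2a*, and 1.41, from *Mitf*. *Cltc*, *Tagap1*, *Actr8*, *Syt4*, *Mrpl51*, *Bnip2* and *Rragc* share near-identical stretches with other genes, and their counts are uncertain. Likeness over 6 libraries that share pairs and composition is a description only.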

How the data were processed

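The authors deposited raw counts per gene and library. Reads were aligned to GRCm38 with STAR, per the submitters' processing notes, from Lexogen QuantSeq 3′ forward libraries sequenced on a NextSeq, per the labels' protocols. HTSeq is named by the table itself. Versions, counting mode, strand and annotation are not given in the sources used here. Tallies of reads on no gene (12.4% to 29.5%) or on several genes (0.487% to 2.51%) entered neither the library sizes nor any fit.

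Genes were tested with edgeR 4.0.16 (glmQLFTest, robust) in R 4.3.3 after filterByExpr (minimum count 10) and TMM, with the 2 groups and no covariate. Benjamini-Hochberg adjustment covered all genes tested. DESeq2 1.42.0 and limma 3.58.1 were alternatives, and the edgeR fits were tested on simulated data. Counts simulated for the block with all 6 libraries varied less than the real ones. The common biological coefficient of variation in that fit was 52.0%. Same-suffix libraries deviated together across genes (correlations 0.466, 0.316 and 0.422, above the minimum of 0.1), so the suffix was taken to pair them. Within-pair log2 differences of other genes use a prior count of 2. Replicates differed by more than counting noise: chi-square divided by its degrees of freedom was 61.8 or more for every pair within a group.

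The members and lists were chosen with earlier results of these data known. Text names all members, list genes that passed with or without pair 2, otherwise a list's 2 most abundant genes, and 3 genes of most similar pattern per member.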

Additional observations from a re-analysis of the deposited data

How the results depend on the processing

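Members gave 95 values over 19 alternatives. None passed, with adjusted p values of 0.252 or more, and 19 of the values turned direction. With the replicate block, which pairs the libraries, *Sox10* moved to -0.086 and *Mc1r* to -0.00019, and it changed no call. *Pax3* turned to 0.081 with the block and limma-voom sample weights, to 0.096 with the block and without pair 2, and to 0.096 without pair 2. *Tfap2a* turned to -0.027, -0.045 and -0.047 in these fits, and to -0.074 with the library total alone, the scaling under which the median of all genes was -0.13. Leaving out 1 library gave ranges of -0.73 to 1.16 for *Mitf*, -0.43 to 0.48 for *Sox10*, -0.37 to 0.30 for *Pax3*, -0.12 to 0.33 for *Tfap2a* and -0.41 to 0.73 for *Mc1r*, and 0 genes passed each time. The lowest values arose without the HPC library of pair 3 for *Mitf*, *Sox10* and *Pax3*, of pair 1 for *Mc1r*, and without the LPC library of pair 2 for *Tfap2a*. Directions also turned for *Mitf* without the LPC library of pair 1 or 2, for *Sox10* without that of pair 2 and for *Pax3* without that of pair 3. These fits had no block, so the partner of the library left out stayed in and differences between pairs enter the values. *Lef1*, *Kit* and *Ednrb* entered only without a count filter, where none passed (adjusted p 0.9999 each).

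Over all genes, 34 passed with the block and sample weights and 155 with the block without pair 2. These fits gave 1 and 1 among other regulators, 1 and 1 among neural crest genes and 5 and 8 in the pigment list, against 0 each with all 6 libraries and no block. The other alternatives gave 0 genes.

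For pair 3 against pair 1, a comparison chosen with its alternatives after seeing the data, 3035 genes passed. With all 6 libraries 0 did, and *Sox10* was 0.49 (adjusted p 0.954), *Mc1r* -0.60 (0.928) and *Mitf* 1.23 (0.291). Without the pigment group as a term 1939 passed, with *Sox10* at 0.49 (0.141) and *Mc1r* at -0.60 (0.0988). Leaving out 1 library and the pigment term together, since 3 libraries cannot hold both terms, gave 1258, 1890, 1178 and 2101 genes without HPC 1, HPC 3, LPC 1 and LPC 3 (numbered by pair), to be read against 1939. In the same order *Sox10* was 0.54, 0.22, 0.44 and 0.71, none passing, and *Mc1r* -0.17, -0.64, -0.93 and -0.55, the third alone passing, with 0.19 to 0.29 for *Pax3* and 0.34 to 0.40 for *Tfap2a*. The cause of these changes was not tested. Counts of 50 to 134 for *Mitf* in pair 2 limit the precision there.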
